A study of Mus musculus with 12 samples.

Results

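The comparison described here sets mouse embryos with 2 combined defects, the homozygous acd allele of Acd and loss of p53 (Acdacd/acd, p53-/-, called double below), against wild type embryos (wt). It uses the 3 arrays titled double and the 3 titled wt, out of 12 arrays in the series, and every probe set that is no control and carries 1 gene symbol, which is 34945 of 45101. These read 18193 genes, of which 13500 were tested. The members were chosen by title and annotation, so no measured value picked them. All embryos were taken whole at E10.5, in the middle of gestation, and the other groups are Acdacd/acd embryos with p53 (acd, 3 arrays) and p53-/- embryos with normal Acd (p53, 3 arrays). The labels call the replicates biological. They give no strain, litter or description of either allele, so the p53 alleles and the acd allele are known by name alone. Array values are RMA log2 values, on which a step of 1 is a doubling, and a difference below is double minus wt on that scale unless another is named.

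Acd encodes TPP1, a shelterin protein that joins the telomere-binding proteins to each other and recruits telomerase, and telomeres that lose this cover are read by the cell as broken DNA. The transcription factor p53 is the main relay from such damage to cell cycle arrest and cell death, and embryos without it keep dividing with damaged chromosomes. Cells also read DNA or RNA in the cytosol as a sign of infection: cGAS or the RIG-I family sense it, type I interferon is released, and its receptor signals to the nucleus to switch on a large set of antiviral genes. At this stage the embryo has a beating heart, primitive red cells, the first macrophages, a liver bud and a brain divided into vesicles.

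The whole embryo label fits the markers: embryonic globin Hba-x lay at 14.05 to 14.39 in double and 14.11 to 14.33 in wt embryos, the neuronal tubulin Tubb3 averaged 10.62 in double and 10.42 in wt, and the placental gene Tpbpa was near the floor, at 3.22 to 3.35 in double and 3.22 to 3.40 in wt. The 3 double embryos were not alike. Over all tested genes the median correlation with the other arrays was 0.972 for double replicate 1, 0.987 for replicate 2 and 0.995 for replicate 3, the other 9 arrays lying at 0.995 or above. The median SD within a genotype was 0.21 in double and 0.06 in wt. Double replicate 1 and wt replicate 1 carried Y-linked transcripts, the other 4 did not, and all acd and p53 embryos did. The highest of 27 Bacillus control sets, which match nothing in mouse RNA, averaged 5.20 over the wt arrays, and differences that start below that level may be compressed. RNA integrity as read by the 3' minus 5' difference of Actb ran from 0.39 to 0.48 in double and 0.41 to 0.46 in wt. The array labelled acd replicate 1 did not follow the other 2 acd arrays in several p53 target genes, as given below, so its values go against its label. It enters the comparison of double with wt through the shared estimate of spread, and without it 1 gene was called higher and 0 lower.

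The targeted gene was lower and its neighbour was higher, and these were the only calls. Acd measured 8.44, 8.42 and 8.24 in the 3 double embryos, against 8.999, 8.995 and 8.988 in the wt embryos. Every double value lay below every wt value, as did the acd arrays at 8.22 to 8.31, whereas the p53 arrays lay at 8.84 to 9.05. The difference was -0.63 ± 0.08 (SE), or 0.646 of the wt level, with a limma adjusted p of 0.0492. This call is fragile: it ended without any 1 of 9 of the arrays (adjusted p 0.0757 to 0.436), although the difference stayed between -0.67 and -0.57. Elmo3, an adaptor for engulfment of dead cells and for cell movement that lies beside Acd on chromosome 8, measured 7.96, 7.35 and 7.53 in double, against 5.53, 5.24 and 5.12 in wt. The groups were 1.82 apart at their nearest values, the widest gap above wt of any tested gene. It rose by 2.32 ± 0.17 (adjusted p = 0.00031) from wt values near the Bacillus controls, and was as high in acd, at 7.57 to 7.85, and as low in p53, at 4.66 to 5.16, so the 6 arrays with the acd allele stood apart from the 6 without it. Its relatives and partners Elmo1, Elmo2, Dock1, Dock2 and Dock5 did not pass, the largest difference being -0.51 ± 0.20 for Dock5. The call rule was met by 0.00741% of tested genes in each direction.

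**Figure D1:**
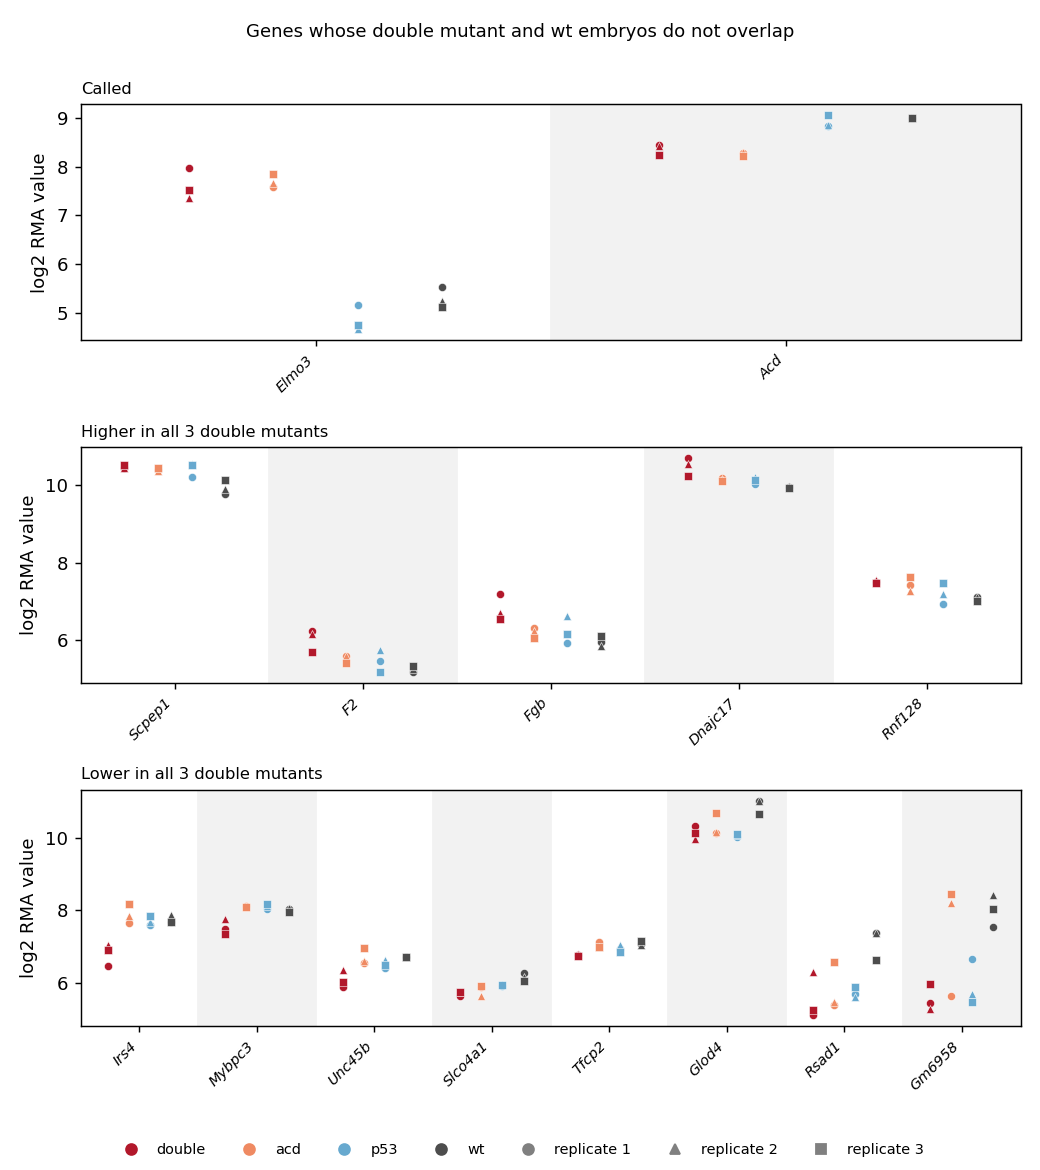
RMA log2 values (y axis) of genes named for a wide gap or a small p, 1 point per embryo, with double left, then acd, p53 and wt; marker shape gives the replicate. In the upper panel Elmo3 is near 7.5 in double and acd and near 5 in p53 and wt, and Acd splits the same way in the other direction; in the lower panel all 3 double embryos lie below all 3 wt embryos, and acd replicates 1 and 2 lie with double for Glod4 and Rsad1, as acd replicate 1 does for Gm6958.

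Of 21 listed telomere genes, Acd included, 20 were measured. In double 16 were lower and 4 higher than in wt, with a median of -0.18 beside -0.01 over all tested genes, and Acd alone passed. Embryo by embryo the list median was -0.27, -0.25 and -0.01, so double replicate 3 lay at the wt level. Rtel1, a helicase that unwinds telomere loops, measured 7.31, 7.43 and 7.69 in double and 7.73 to 7.88 in wt (-0.31 ± 0.10). Dclre1b, the Apollo nuclease of telomere ends, measured 7.99, 7.86 and 8.17 in double and 8.24 to 8.36 in wt (-0.29 ± 0.11). Both groups were apart for these genes, replicate 3 lying just under wt, and the same held for Stn1 of the CST complex (-0.28 ± 0.11). Among the shelterin subunits, Terf1 (0.15), Terf2 (-0.11), Tinf2 (-0.11), Pot1a (-0.02) and Terf2ip (-0.16) stayed within 0.2 of wt, and Pot1b, which protects the recessed strand, measured 5.77 in replicate 3 and 5.37 and 5.03 in replicates 1 and 2, against 5.06 to 5.30 in wt. Of the telomerase genes, Dkc1, the pseudouridine synthase that binds its RNA, measured 11.18, 11.45 and 11.84 in double and 11.77 to 11.81 in wt (-0.30 ± 0.13), and the catalytic subunit Tert measured 5.51, 6.10 and 6.13 in double and 5.99 to 6.34 in wt.

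Beyond these calls the comparison is governed by which embryo is asked. At an unadjusted p under 0.05 there were 633 genes higher (4.69%) and 866 lower (6.41%), and no other gene came nearer to passing than Irs4 (adjusted p = 0.332). All 3 double embryos lay above all 3 wt embryos for 670 tested genes (4.96%) and below for 1112 (8.24%). Genes more than 1 above the wt mean numbered 290 (2.15%), 142 (1.05%) and 4 (0.0296%) in double replicates 1, 2 and 3, and genes more than 1 below it 124 (0.919%), 15 (0.111%) and 18 (0.133%). No other array reached more than 14 in either direction. Without double replicate 3 there were 828 genes called higher (6.13%) and 818 lower (6.06%), without replicate 1 there were 2 (0.0148%) and 1 (0.00741%), and without replicate 2 there were 1 (0.00741%) and 0. Of the 1646 genes called without replicate 3, 735 had the same sign in that embryo, 177 of the higher ones lay above all wt arrays in it and 281 of the lower ones below. Each group below is therefore given by embryo. Calls made without replicate 3 rest on the 2 double embryos that stood farthest from wt, and describe those embryos.

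**Figure D2:**
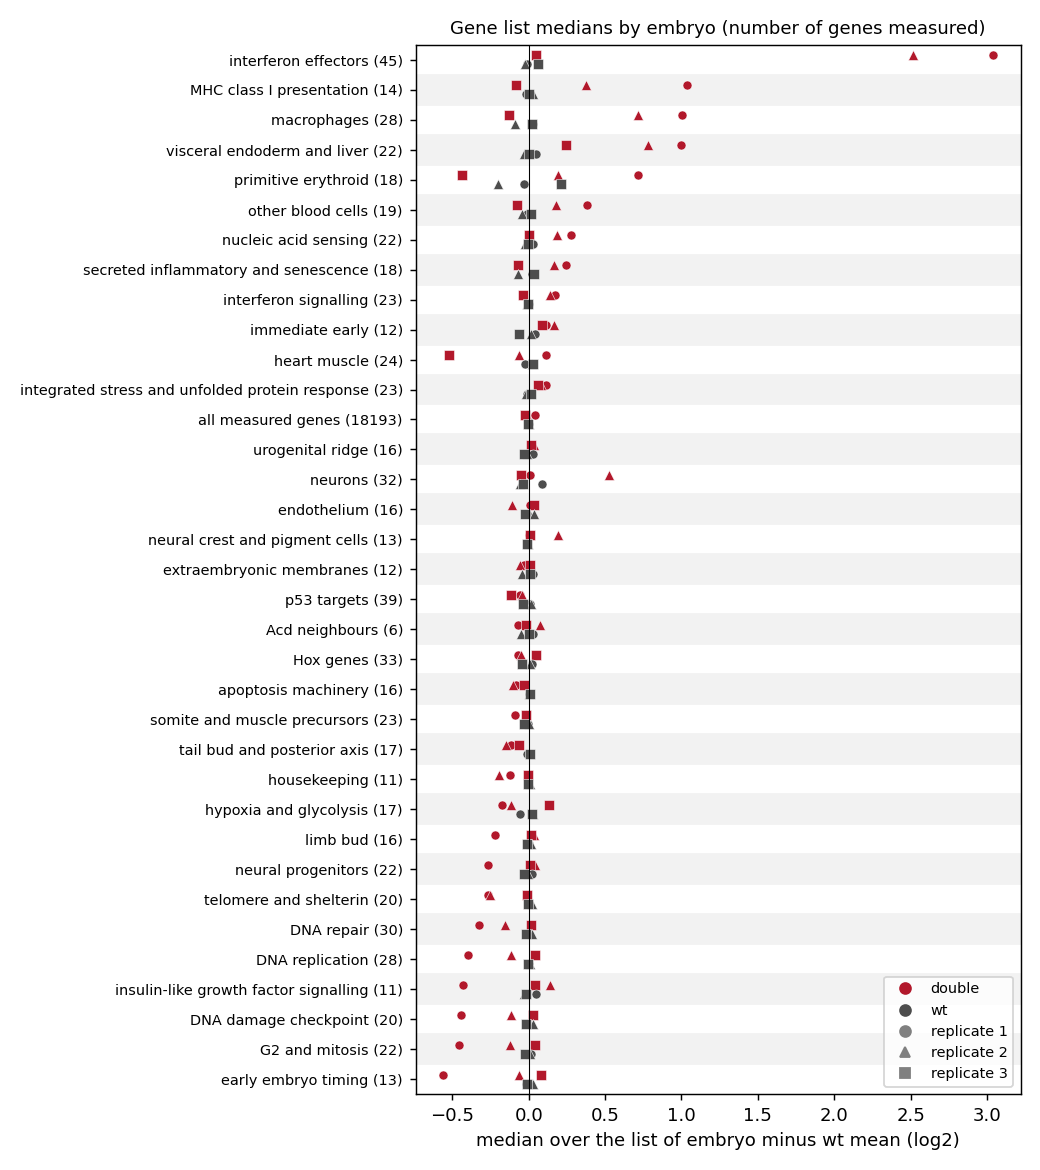
Median over each gene list of the embryo minus the wt mean (x axis, log2), for double (red, upper marks) and wt (grey, lower marks); marker shape gives the replicate and the number of genes measured stands after each name. Interferon effectors lie at 3.04 and 2.52 in double replicates 1 and 2 and at 0.05 in replicate 3, heart muscle lies lowest in replicate 3 at -0.52, and early embryo timing lowest in replicate 1 at -0.56.

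The largest differences were in interferon-induced antiviral genes, which were many times higher in double replicates 1 and 2 and close to wt in replicate 3. Over all 45 effector genes measured, 34 lay more than 1 above the wt mean in replicate 1, 31 in replicate 2 and 1 in replicate 3, beside 1.85%, 0.956% and 0.022% of all measured genes. The list median was 3.04, 2.52 and 0.05 in the 3 embryos, and -0.04 to 0.16 in the acd and p53 arrays. None of the 24 members that were tested passed with all arrays, so the sizes below describe embryos, and 17 of the 45 had all double above all wt (5.24% of measured genes). Several of the promoters of these genes hold the interferon-stimulated response element, the DNA letters that interferon regulatory factors bind. The letters searched were GAAA, any 2 bases and GAAA again, on either strand and with overlaps counted, in windows from 250 bases before to 50 after each RefSeq start of build GRCm38.p6. They occurred in 1131 of 32851 windows (3.44%), or 1079 of 27025 genes (3.99%). Of 35 effector genes with a window 16 held them (45.7%), as did 6 of 22 interferon signalling genes (27.3%), 4 of 16 nucleic acid sensing genes (25.0%), 3 of 11 MHC class I genes (27.3%), 3 of 21 macrophage genes (14.3%), 1 of 20 liver and endoderm genes (5.0%) and 0 of 21 heart muscle genes. The windows of 5 of the genes with the largest mean differences are shown so that the position of the letters, in capitals, can be read; Parp12 is the one among them with no match, and Usp18 and Rtp4 have no window in the table. Irgm1 lies at chr11.0:48871371-48871670, Bst2 at chr8.0:71537423-71537722, Parp12 at chr6.0:39118300-39118599 and Rsad2 at chr12.0:26456403-26456702, all on the minus strand, and Igtp at chr11.0:58199306-58199605 on the plus strand.
Irgm1: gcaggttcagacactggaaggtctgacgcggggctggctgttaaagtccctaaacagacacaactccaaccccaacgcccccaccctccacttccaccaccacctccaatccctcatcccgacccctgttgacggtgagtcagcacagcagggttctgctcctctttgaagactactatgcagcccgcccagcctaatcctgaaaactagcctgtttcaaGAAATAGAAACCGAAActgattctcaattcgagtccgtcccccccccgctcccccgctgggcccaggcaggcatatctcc
Bst2: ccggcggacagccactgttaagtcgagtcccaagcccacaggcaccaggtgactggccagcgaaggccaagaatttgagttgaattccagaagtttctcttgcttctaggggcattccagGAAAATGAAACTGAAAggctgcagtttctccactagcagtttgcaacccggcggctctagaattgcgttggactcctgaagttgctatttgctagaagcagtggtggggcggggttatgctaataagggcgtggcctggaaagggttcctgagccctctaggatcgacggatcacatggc
Parp12: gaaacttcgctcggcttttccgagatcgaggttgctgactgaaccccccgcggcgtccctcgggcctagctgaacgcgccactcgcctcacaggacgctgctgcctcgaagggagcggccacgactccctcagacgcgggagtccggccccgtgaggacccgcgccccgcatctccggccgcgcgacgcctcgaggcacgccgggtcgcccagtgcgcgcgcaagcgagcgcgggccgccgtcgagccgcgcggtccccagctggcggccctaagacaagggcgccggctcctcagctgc
Rsad2: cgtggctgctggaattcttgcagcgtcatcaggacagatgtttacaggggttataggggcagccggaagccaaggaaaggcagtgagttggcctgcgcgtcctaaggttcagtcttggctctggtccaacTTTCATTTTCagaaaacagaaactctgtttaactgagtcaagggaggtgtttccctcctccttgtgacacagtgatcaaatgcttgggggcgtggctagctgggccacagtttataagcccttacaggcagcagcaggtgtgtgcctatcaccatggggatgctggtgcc
Igtp: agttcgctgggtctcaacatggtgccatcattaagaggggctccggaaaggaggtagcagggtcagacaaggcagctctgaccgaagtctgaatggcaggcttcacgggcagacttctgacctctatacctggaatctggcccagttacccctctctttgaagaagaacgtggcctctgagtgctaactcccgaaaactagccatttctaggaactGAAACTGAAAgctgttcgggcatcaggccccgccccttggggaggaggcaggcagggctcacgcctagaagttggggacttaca
In Irgm1 and Bst2 a pair of overlapping matches forms 1 run, which begins 30 and 130 bases before the start. In Igtp the match begins 34 bases before it, and in Rsad2, where it is on the opposite strand, 120. A match describes these letters and does not show that a factor binds there.

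Among the genes of nucleic acid sensing, several sensors were high in replicates 1 and 2, none passing the test with all arrays. The promoter window of the sensor Ifih1 also holds the response element letters. Whether sensor transcripts rose ahead of the interferon response or as part of it was not tested. The interferons too low to be tested were below the highest Bacillus control. Ifih1, the MDA5 sensor of long double-stranded RNA, measured 9.18, 9.21 and 5.52 in double, against 5.39 to 5.61 in wt. Ddx58, the RIG-I sensor of short RNA ends, measured 7.24, 7.42 and 4.99 in double and 4.86 to 4.99 in wt. Both were high in replicates 1 and 2 alone, and replicate 3 lay within the wt range or at its edge. Eif2ak2, the kinase PKR that stops translation on double-stranded RNA, measured 8.51, 9.17 and 7.05 in double and 6.70 to 7.01 in wt (1.34 ± 0.38, adjusted p = 0.447). Cgas, the cytosolic DNA sensor, measured 6.64, 5.99 and 5.70 in double and 5.57 to 5.63 in wt, so all 3 embryos lay above wt by a smaller margin (0.51 ± 0.18), whereas its adaptor Sting1 measured 6.64, 6.47 and 6.44 in double and 6.60 to 6.69 in wt. Of 22 sensing genes measured, 5 lay over 1 above wt in replicate 1, 3 in replicate 2 and 0 in replicate 3. The ligands Ifnb1 (4.44, 3.95 and 3.96 in double, 3.92 to 4.12 in wt), Ifna2, Ifna4 and Ifng were all below the highest Bacillus control in every embryo. Their transcripts were thus not seen above that level in either genotype. Ifna1, the only 1 of the 5 interferons measured that was tested, differed by 0.04 ± 0.12 and did not pass. The receptor chain Ifnar2 measured 8.43, 8.01 and 7.86 in double and 7.91 to 8.02 in wt, the groups overlapping, whereas Ifngr2, of the type II receptor, was above wt in all 3, at 8.17, 7.41 and 7.33 in double and 6.86 to 7.23 in wt (0.55 ± 0.19).

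Among the signal carriers, Irf9, the DNA-binding subunit of the interferon complex, measured 9.52, 9.22 and 6.85 in double, against 6.36 to 6.45 in wt, and all 3 double embryos lay above the other 9 arrays, of which the highest was at 6.65. Its mean difference was 2.12 ± 0.50 (adjusted p = 0.447), and without double replicate 3 it was called at 2.96 ± 0.10 (adjusted p = 1.27e-08). Stat2 measured 5.89, 5.57 and 4.74 in double and 4.61 to 4.81 in wt. Irf7, which amplifies interferon production, measured 6.67, 6.11 and 3.79 in double and 3.82 to 3.86 in wt, and was too low in the other arrays to be tested. Irf1 measured 7.79, 7.32 and 7.02 in double and 6.91 to 6.94 in wt (0.45 ± 0.15). The protease Usp18, an inhibitor that blocks the interferon receptor and strips ISG15 from proteins, measured 10.68, 10.01 and 4.30 in double and 3.72 to 3.91 in wt. The double mean was at least 8.76-fold the wt level if wt is set at the highest Bacillus control. Without replicate 3 the Usp18 difference was called (limma adjusted p = 1.27e-08). For Irf9 and Usp18 that setting leaves out the double embryo nearest to wt. These calls therefore describe replicates 1 and 2 and are no further support. The inhibitor Socs1 (4.92, 4.80 and 4.38 in double, 4.49 to 4.52 in wt) was below those controls.

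Effectors carried the widest range. Rtp4, an interferon-induced chaperone of receptors, measured 10.89, 10.19 and 5.94 in double, against 4.41 to 4.60 in wt, at least 14-fold over the Bacillus level in the mean. It was the exception in replicate 3, which lay 1.46 above the wt mean and above the acd arrays at 4.89 to 5.26. Rsad2, the antiviral enzyme viperin, measured 10.72, 10.49 and 6.95 in double and 6.27 to 6.53 in wt, with replicate 3 again above every wt array and above acd at 6.44 to 6.88. Bst2, which tethers budding viruses to the cell surface, measured 11.27, 10.31 and 6.29 in double and 6.18 to 6.23 in wt, and Ifitm3, which blocks virus fusion, 12.39, 11.95 and 8.78 in double and 8.39 to 8.54 in wt. Trim25, a ubiquitin ligase that activates RIG-I, measured 10.52, 10.23 and 8.32 in double and 7.53 to 8.0 in wt. In these 5 genes replicate 1 was highest and replicate 3 lowest of the double embryos, though above every wt embryo. The interferon-inducible GTPases Irgm1 (9.88, 9.31 and 5.37 in double, 4.88 to 5.15 in wt), Igtp (10.81, 10.20 and 7.03 in double, 6.58 to 6.82 in wt) and Irgm2 (7.99, 8.21 and 4.90 in double, 4.52 to 4.69 in wt) act on the vacuoles of intracellular parasites. They are related in sequence, and probes may cross between them. Of the effectors too low to be tested, several were as high in replicates 1 and 2: Ifit1 measured 9.14, 8.87 and 3.78 in double and 3.56 to 3.63 in wt, Oasl2 8.55, 8.10 and 3.75 in double and 3.35 to 3.60 in wt, and Xaf1 9.09, 8.82 and 4.198 in double and 3.81 to 4.07 in wt. The chemokine Cxcl10, which draws T cells, measured 6.76, 6.15 and 3.47 in double and 3.71 to 3.83 in wt, lowest of all 12 arrays in replicate 3. Others were near wt in all 3, Oas3 measuring 3.94, 3.76 and 3.75 in double and 3.72 to 3.86 in wt, Cxcl9 3.59, 3.35 and 3.41 in double and 3.10 to 3.75 in wt, and Herc6 6.13, 6.32 and 5.94 in double and 5.96 to 6.36 in wt.

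**Figure D3:**
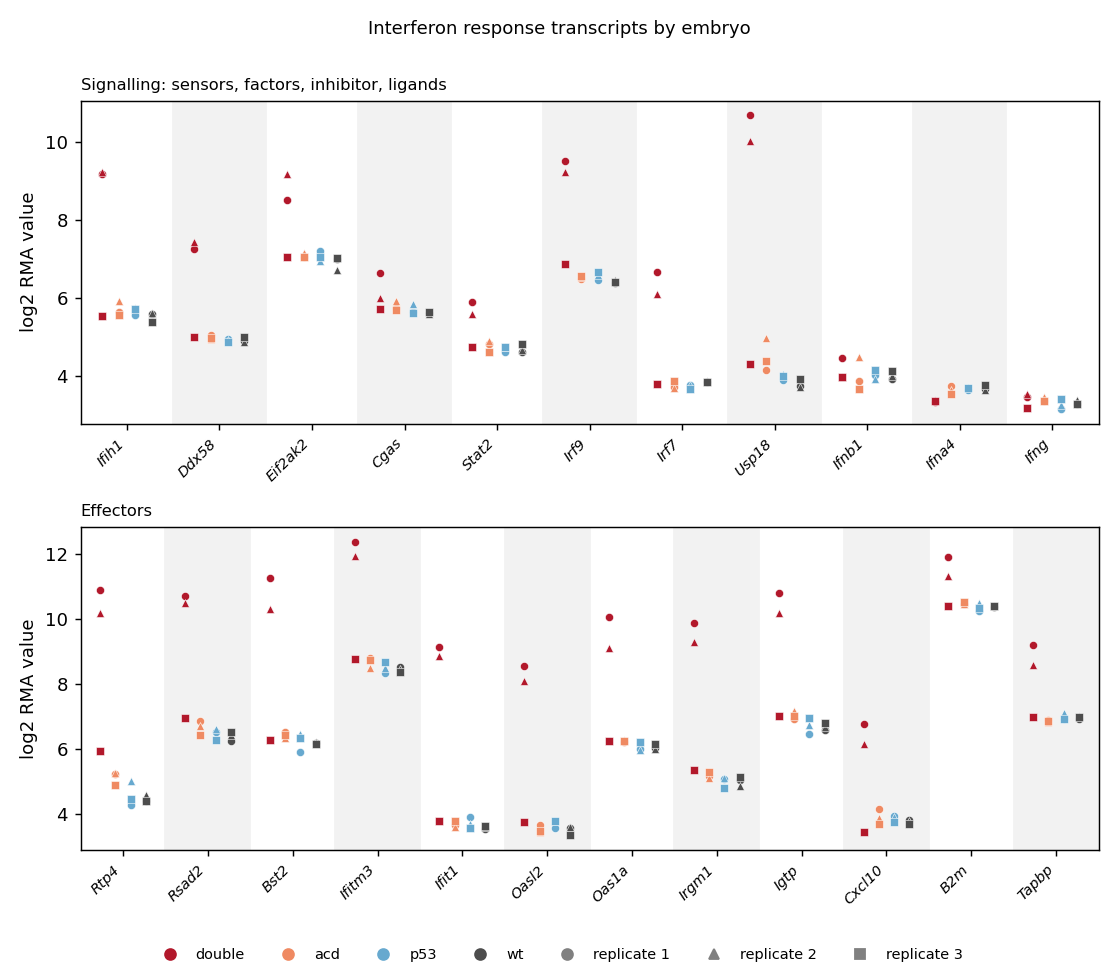
RMA log2 values (y axis) of interferon response transcripts, 1 point per embryo, with double left, then acd, p53 and wt; marker shape gives the replicate. Double replicates 1 and 2 stand far above the other 10 arrays for most sensors and effectors, and replicate 3 lies near them except for Rtp4, Rsad2 and Irf9. The interferons shown (Ifnb1, Ifna4 and Ifng) stay under 5 everywhere.

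Antigen presentation, which interferon also induces, was graded the same way. Over the 14 MHC class I genes measured, 8 lay more than 1 above wt in replicate 1, 2 in replicate 2 and 0 in replicate 3, and the median was 1.04, 0.38 and -0.08. The light chain B2m measured 11.93, 11.34 and 10.43 in double and 10.39 to 10.41 in wt, and the heavy chain H2-K1 10.47, 9.56 and 8.79 in double and 8.68 to 8.84 in wt. The peptide loading protein Tapbp measured 9.22, 8.59 and 6.98 in double and 6.94 to 7.04 in wt, and the immunoproteasome subunit Psmb8 6.96, 5.89 and 4.44 in double and 4.52 to 4.76 in wt. Replicates 1 and 2 were above all wt embryos in each of these, and replicate 3 was just above it for B2m, within the wt range for H2-K1 and Tapbp, and below it for Psmb8.

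Macrophage transcripts were higher in the same 2 embryos and, by the list median, slightly below wt in the third. All 23 tested macrophage genes had a positive mean difference (46.8% of tested genes did), 0 passed, and the median over the 28 measured was 1.01, 0.71 and -0.13 by embryo. In bulk RNA fewer cells of a type and less RNA per cell cannot be told apart. The lysosomal protease Ctss measured 9.62, 8.61 and 5.64 in double and 6.24 to 6.87 in wt, and the complement chain C1qa 7.28, 6.70 and 4.81 in double and 5.10 to 5.38 in wt. Lineage receptors differed less: Csf1r, the receptor for the macrophage growth factor, measured 8.85, 8.49 and 7.21 in double and 7.59 to 7.88 in wt, and Cx3cr1 6.21, 6.24 and 5.38 in double and 5.71 to 5.92 in wt. In all 4 genes replicate 3 lay below every wt embryo, as it did for 14 of the 28. Single embryos lay below all wt in 41.4%, 40.9% and 36.6% of tested genes in double replicates 1, 2 and 3. For 4 of the 28, all 3 double embryos lay above all wt embryos (5.24% of measured genes). Mrc1, the mannose receptor of tissue macrophages, was among these, at 6.23, 6.67 and 5.71 in double and 5.29 to 5.52 in wt (0.80 ± 0.20). The 5 list members with the smallest p were Hpgds, Mrc1, Adgre1, Ptprc and C1qc, with mean differences of 0.47 to 1.18. Several macrophage genes also respond to interferon, and the part of one group in the other was not tested.

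Over 19 genes of other blood lineages measured the median was 0.38, 0.18 and -0.08 by embryo, and 2 had all double above all wt (5.24% of measured genes). S100a8, a granulocyte protein, measured 7.73, 6.17 and 4.09 in double and 3.80 to 3.98 in wt, and the granule enzyme Mpo 6.92, 6.73 and 5.90 in double and 4.89 to 5.68 in wt (1.21 ± 0.28). All double embryos lay above wt for both, though S100a8 in replicate 3 stayed below the Bacillus controls. S100a9, a related granulocyte gene, measured 6.22, 4.99 and 3.58 in double and 3.71 to 3.74 in wt. The platelet chemokine Ppbp measured 8.83, 7.77 and 6.64 in double and 6.43 to 6.88 in wt. Primitive red cell genes split by embryo: over the 18 measured the median was 0.72, 0.19 and -0.44, while wt embryos themselves ran from -0.20 to 0.21. Of the 18, 1 had all double below all wt (7.02% of measured genes) and 0 all above (5.24%). Alas2, the first enzyme of haem synthesis in red cells, measured 9.76, 9.11 and 8.01 in double and 8.42 to 8.98 in wt, and the anion exchanger Slc4a1 11.66, 11.08 and 9.97 in double and 10.30 to 10.87 in wt. Double replicate 3 was below every wt embryo in 17 of the 18 genes (36.6% of tested genes). The acd and p53 arrays spread as widely, acd replicate 2 having a median of 0.62 and p53 replicate 3 one of -0.46. The embryonic globins, close to the top of the scale, differed by 0.07 (Hba-x), 0.02 (Hbb-y) and 0.01 (Hbb-bh1) in the mean. The 16 endothelial genes had a median of 0.00 and 0 passed, with vascular receptors such as Tek at 7.52, 7.11 and 7.51 in double and 7.47 to 7.54 in wt.

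Plasma protein and lipoprotein transcripts of liver and endoderm were high in double replicates 1 and 2 and slightly above wt in replicate 3. Of 22 genes measured, 9 had all double above all wt (5.24% of measured genes) and 0 all below, and the median was 0.997, 0.78 and 0.25. The acd arrays had list medians of 0.25, 0.21 and 0.17, like that of double replicate 3. Albumin, Alb, measured 10.25, 9.89 and 7.64 in double, against 7.56, 7.11 and 7.08 in wt. The difference of 2.01 ± 0.51 did not pass (limma adjusted p = 0.447). Without replicate 3, the double embryo nearest to wt, it was 2.82 ± 0.21 (limma adjusted p = 1.78e-05). That value describes replicates 1 and 2 and is no further support. The fibrinogen chain Fgb measured 7.19, 6.71 and 6.54 in double and 5.85 to 6.12 in wt, and prothrombin, F2, measured 6.23, 6.17 and 5.70 in double and 5.18 to 5.35 in wt. Their nearest values were 0.42 and 0.35 apart, among the widest gaps of the comparison. In acd Fgb lay at 6.06 to 6.32 and F2 at 5.42 to 5.60. The serum carriers Ttr (11.80, 10.997 and 9.27 in double, 8.85 to 9.22 in wt) and Rbp4 (9.39, 8.59 and 7.72 in double, 7.31 to 7.52 in wt) and the fetal protein Afp (12.63, 12.72 and 11.65 in double, 11.23 to 11.44 in wt) had the same order. The level of these genes also varied within other genotypes, p53 replicate 2 having a list median of 0.93, with Ttr at 10.99 and Apoa1, the main protein of HDL, at 8.65 against 8.88, 8.09 and 6.38 in double. The 6 transcription factors of this lineage did not share that order, with medians of -0.46, 0.09 and 0.28 by embryo. In replicate 1, 5 of the 6 lay below all wt (41.4% of tested genes). In replicate 3, 4 of the 6 lay above all wt (25% of tested genes). Of 12 extraembryonic genes measured, 0 had all double above all wt (5.24% of measured genes) and 1 all below (7.02%).

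A different set of genes was lower in double replicates 1 and 2 and at or above wt in replicate 3, and holds factors that the early embryo switches off with age. Lin28a, an RNA-binding protein that blocks let-7 maturation, measured 6.18, 7.27 and 9.66 in double, against 8.93 to 9.17 in wt. Trim71, a let-7 target that represses mRNAs, measured 7.74, 8.64 and 10.23 in double and 9.63 to 9.85 in wt, and Sall4, a factor of pluripotent and progenitor cells, 8.20, 8.84 and 10.34 in double and 10.14 to 10.27 in wt. In each of them replicates 1 and 2 lay far below and replicate 3 just above every wt embryo, so the groups overlap in rank and none passed. Prtg, a receptor of the early neural tube and mesoderm (7.89, 8.66 and 10.72 in double, 10.06 to 10.35 in wt), Wfikkn1, a binder of growth factors (5.12, 4.92 and 7.41 in double, 6.52 to 6.82 in wt), and Hoxb1, which patterns the hindbrain (5.77, 6.29 and 7.68 in double, 7.20 to 7.51 in wt), shared the order. Without replicate 3 all 6 were called lower, Lin28a at -2.32 ± 0.32 (adjusted p = 0.00219) and Sall4 at -1.66 ± 0.19 (adjusted p = 0.000778). The 6 were named for their fall, which replicates 1 and 2 carry, so these calls restate that choice and are no further support. The levels also varied between embryos of the other genotypes, Lin28a measuring 9.11, 9.37 and 9.94 in acd and 8.99, 8.80 and 9.60 in p53. Over the 13 genes of this list measured, 5 lay more than 1 below wt in replicate 1, 3 in replicate 2 and 0 in replicate 3. Pluripotency genes Pou5f1 and Nanog were below the Bacillus controls in every embryo.

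Genes of posterior and segmental identity differed less. Of 33 Hox genes measured the median was -0.02; 2 had all double above wt (5.24% of measured genes) and 4 all below (7.02%). Hoxa11 measured 7.30, 7.44 and 7.37 in double and 7.57 to 7.75 in wt (-0.28 ± 0.09), and Hoxd10 7.98, 8.12 and 7.99 in double and 8.27 to 8.32 in wt (-0.26 ± 0.10); Hoxa5 went the other way, at 9.43, 9.43 and 9.45 in double and 9.18 to 9.32 in wt (0.18 ± 0.08). These 3 were even across the double embryos, and acd lay at 7.26 to 7.55 for Hoxa11, 7.81 to 8.17 for Hoxd10 and 8.96 to 9.05 for Hoxa5. Hoxd13, a gene of the hindmost body and digits, was split instead, at 7.40, 7.63 and 6.56 in double and 6.79 to 6.86 in wt. In the tail bud, Cyp26a1, the enzyme that clears retinoic acid there, measured 7.28, 7.05 and 7.62 in double and 7.71 to 7.82 in wt (-0.43 ± 0.13), and Fgf8, the growth signal of tail bud and limb ridge, measured 7.19, 6.82 and 7.20 in double and 7.29 to 7.41 in wt (-0.29 ± 0.12). All 3 double embryos lay below wt for both, and 4 of the 17 tail bud genes measured did (7.02% of measured genes). In the limb, Grem1, a BMP antagonist, measured 6.83, 6.94 and 7.16 in double and 6.63 to 6.79 in wt, while Lmx1b, which sets the dorsal side, measured 5.61, 6.36 and 6.61 in double and 6.69 to 6.81 in wt. Somite genes had a median of -0.07; Meox1 measured 7.02, 7.58 and 8.19 in double and 7.89 to 8.23 in wt, and the muscle factor Myog 8.41, 8.33 and 7.75 in double and 7.72 to 7.86 in wt.

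Genes that were lower in all 3 double embryos were led by Irs4, an insulin receptor substrate encoded on the X chromosome. Irs4 measured 6.46, 7.05 and 6.90 in double, against 7.68, 7.87 and 7.68 in wt. The groups were 0.63 apart, and acd (7.67 to 8.16) and p53 (7.60 to 7.85) lay with wt. The difference of -0.94 ± 0.16 did not pass (adjusted p = 0.332), and a second probe set of Irs4, below the Bacillus controls, showed 0.00. Mybpc3, which braces the thick filament of heart muscle, measured 7.497, 7.75 and 7.36 in double and 7.97 to 8.07 in wt, with every acd and p53 array above 8.0 (-0.49 ± 0.09, adjusted p = 0.447). Unc45b, the chaperone that folds myosin, measured 5.89, 6.35 and 6.02 in double and 6.71 in each wt embryo (-0.62 ± 0.13). Tfcp2, a transcription factor, measured 6.77, 6.80 and 6.76 in double and 7.06 to 7.16 in wt (-0.33 ± 0.08), and Mitf, the master factor of pigment cells, measured 6.24, 6.44 and 6.35 in double and 6.69 to 6.84 in wt. In all 5 genes the 3 double embryos lay below all 3 wt embryos.

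For another set of genes with separated groups double lay with the p53 embryos. Glod4 measured 10.32, 9.96 and 10.11 in double and 10.66 to 11.002 in wt, and lay at 10.02 to 10.11 in p53 and at 10.12, 10.15 and 10.68 in acd. Gm6958 measured 5.44, 5.30 and 5.99 in double and 7.55 to 8.42 in wt, at 5.49 to 6.65 in p53 and at 5.66, 8.20 and 8.44 in acd. Rsad1 measured 5.12, 6.30 and 5.27 in double and 6.64 to 7.39 in wt, with p53 at 5.61 to 5.90 and acd at 5.41, 5.50 and 6.59. Double thus lay beside p53 and apart from wt in all 3 genes. In the other direction Scpep1, a lysosomal carboxypeptidase, measured 10.43, 10.44 and 10.498 in double and 9.77 to 10.12 in wt (0.53 ± 0.11), with acd at 10.36 to 10.43; its second probe set differed by 0.12, and further sets of Rsad1, Slco4a1 and Dnajc17 also differed by less than 0.2. Of the 24 genes with the widest gaps, 6 lie on chromosome 11 (Trim25, Scpep1, Unc45b, Rsad1, Glod4 and Ccng1), which holds 8.25% of tested genes and also the p53 gene. Strain is not given, and whether DNA around either allele has a part in these differences was not tested.

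Known p53 targets show how far transcripts under p53 control differed in double. Of 39 measured, 10 had all double below all wt (7.02% of measured genes) and 1 all above, and the median difference was -0.05. Ccng1, cyclin G1, a direct and strong p53 target, measured 8.44, 8.51 and 8.33 in double, against 9.22, 9.26 and 8.75 in wt, and 8.32 to 8.54 in p53. Eda2r, a death receptor, measured 3.79, 3.56 and 3.82 in double and 4.13 to 4.42 in wt, all under the Bacillus controls. Phlda3, which restrains AKT, measured 7.23, 7.07 and 7.09 in double and 7.35 to 7.71 in wt (-0.42 ± 0.20). In these 3 genes the double embryos were even, in contrast to the interferon genes, and lay with p53. The 3 acd arrays were split: Ccng1 measured 8.34, 10.16 and 10.34 in acd replicates 1, 2 and 3, Eda2r 3.97, 5.58 and 5.97, and Phlda3 7.21, 8.06 and 8.16, so the array labelled acd replicate 1 lay with double and p53. The same was seen in Cdkn1a, the cell cycle inhibitor p21, at 8.02, 8.83 and 8.99 in acd; Cdkn1a measured 8.06, 8.07 and 8.06 in double and 8.04 to 8.09 in wt. Of the apoptosis targets, Bbc3, the killer protein Puma, measured 6.87, 6.86 and 6.99 in double and 7.09 to 7.16 in wt (-0.21 ± 0.08), and Aen 8.88, 8.46 and 8.77 in double and 8.94 to 9.06 in wt. Pmaip1, the killer protein Noxa, which interferon can also induce, was high in 2 embryos, at 7.38, 7.90 and 5.75 in double and 6.47 to 6.65 in wt. The feedback genes Ppm1d (-0.40 ± 0.12) and Zmat3 (-0.45 ± 0.18) had all double below wt, and Mdm2, the ubiquitin ligase of p53, measured 8.97, 8.93 and 8.94 in double and 8.94 to 9.08 in wt. None of the targets passed.

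**Figure D4:**
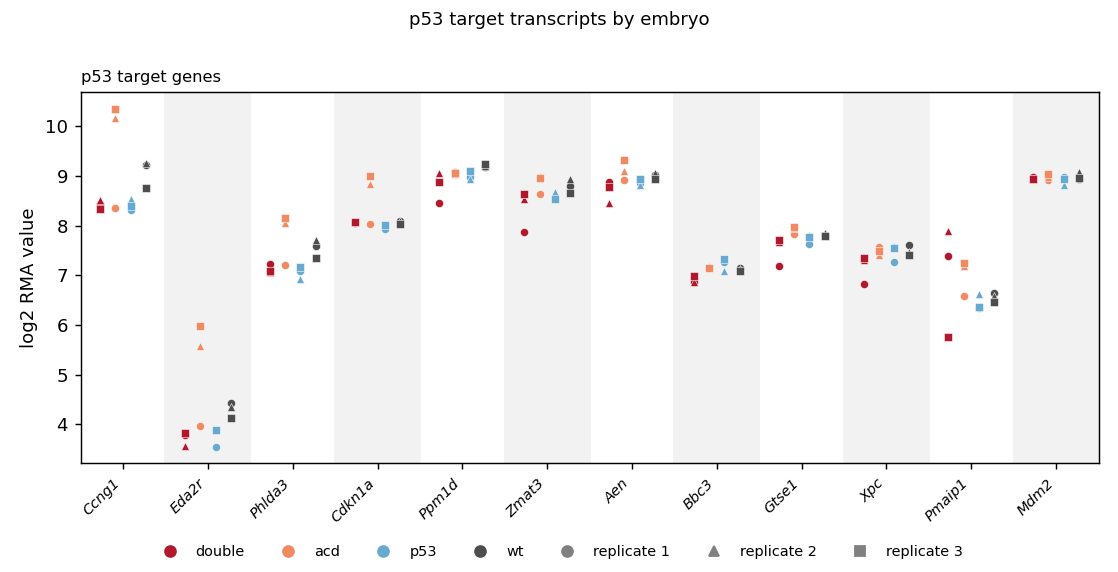
RMA log2 values (y axis) of p53 target transcripts, 1 point per embryo, with double left, then acd, p53 and wt; marker shape gives the replicate. Double and p53 embryos lie together below wt for Ccng1, Eda2r and Phlda3, acd replicates 2 and 3 lie highest, and acd replicate 1 lies with the double embryos.

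Damage response, repair and division genes were mostly lower in double replicate 1 and slightly lower in replicate 2, with medians near 0 in replicate 3. The list medians by embryo were -0.44, -0.11 and 0.03 for 20 checkpoint genes, -0.32, -0.15 and 0.02 for 30 repair genes, -0.40, -0.12 and 0.04 for 28 replication genes and -0.45, -0.12 and 0.04 for 22 mitosis genes. The mean difference was negative in 18 of the 20, 23 of the 30, 25 of the 28 and 17 of the 22 (53.2% of tested genes), and 0 passed. The apical kinase Atr measured 7.51, 7.95 and 8.49 in double and 8.40 to 8.52 in wt, and Hus1, a ring of the checkpoint clamp, 8.19, 8.54 and 8.99 in double and 8.94 to 9.01 in wt. The DNA ligase Lig1 measured 10.75, 10.84 and 10.98 in double and 11.02 to 11.11 in wt (-0.21 ± 0.08), and Foxm1, the factor of mitotic genes, 7.11, 7.58 and 7.73 in double and 7.71 to 7.89 in wt. Of these 4 genes replicate 3 was below wt for Lig1 and within the wt range for the other 3. Over the lists it lay above all 3 wt embryos in 6 of 20 checkpoint, 12 of 30 repair, 16 of 28 replication and 10 of 22 mitosis genes (25% of tested genes), among them 10 of the 12 licensing genes. Some went the other way, the licensing protein Gins2 measuring 10.30, 9.76 and 10.05 in double and 9.77 to 9.89 in wt. Of 16 genes of the apoptosis machinery, 2 had all double below wt (8.24% of tested genes) and 0 above (4.96%). Bcl2, which holds cells back from death, measured 7.76, 8.32 and 8.46 in double and 8.51 to 8.63 in wt (-0.41 ± 0.14).

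Double replicate 3, the embryo nearest to wt in the interferon genes, had low values of heart genes. Its 18 tested genes more than 1 below the wt mean included 6 of the 24 listed heart genes, and 3 were Y-linked genes of the male wt embryo; replicate 1 had 2 heart genes there and replicate 2 had 0 (0.682% and 0.0824% of all measured genes lay there in these 2). Myl2, the light chain of ventricular myosin, measured 11.96, 11.25 and 9.24 in double replicates 1, 2 and 3, against 11.16 to 11.21 in wt. The natriuretic peptides Nppa (10.34, 9.28 and 7.34 in double, 9.20 to 9.29 in wt) and Nppb (8.36, 7.35 and 5.75 in double, 7.42 to 7.58 in wt) and Pln, which brakes the calcium pump (7.501, 6.91 and 4.95 in double, 6.56 to 6.82 in wt), gave the same picture. Replicate 3 was far below wt, replicate 1 above it and replicate 2 near it, so that group means hide both. All 13 sarcomere genes were below every wt embryo in replicate 3, with medians of 0.46, -0.11 and -0.60 by embryo. The cardiac myosin heavy chains differed from the light chains, Myh6 measuring 8.07, 9.26 and 9.24 in double and 9.27 to 9.55 in wt, and Myh7 8.82, 9.87 and 8.44 in double and 9.57 to 9.64 in wt, so both were low in replicate 1 also. Of the heart transcription factors, Tbx20 was low in replicate 1 and the others named lay near wt, Nkx2-5 measuring 6.16, 5.85 and 6.10 in double and 5.94 to 6.15 in wt, Tbx5 7.501, 7.78 and 7.60 in double and 7.53 to 7.62 in wt, and Tbx20 6.42, 7.40 and 7.40 in double and 7.44 to 7.64 in wt.

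Some forebrain genes were also low in that embryo, though the 9 listed forebrain genes as a group had a median of only -0.07 in it, with 0 more than 1 below wt and 5 below all wt (36.6% of tested genes). The 4 named next were chosen after their values were seen. Wnt8b, a signal of its dorsal midline, measured 7.51, 7.40 and 5.69 in double replicates 1, 2 and 3, against 6.93 to 7.26 in wt. Fezf2, which specifies projection neurons and the rostral forebrain, measured 6.54, 6.47 and 5.07 in double and 6.17 to 6.32 in wt, and Emx2, a cortical patterning factor, 7.73, 8.28 and 7.12 in double and 7.90 to 7.93 in wt. Six3, which sets the front of the brain and the eye field, measured 6.46, 7.05 and 6.08 in double and 6.69 to 6.78 in wt. Replicate 3 was lowest of all 12 arrays in these 4 genes. Otx2, which marks forebrain and midbrain, measured 8.64, 8.85 and 8.75 in double and 8.65 to 8.82 in wt. En2 of the midbrain and hindbrain border measured 6.52, 7.01 and 7.74 in double and 7.20 to 7.49 in wt. Replicate 3 was thus not low in Otx2 or En2. With replicates 1 and 2 left out, which leaves 1 double embryo and takes its spread from the other groups, 24 genes were called lower and 2 higher, Elmo3 and Rufy2. Acd was among the 24, as were Myl2 (-1.94), Nppa (-1.90), Wnt8b (-1.38), Fezf2 (-1.18) and Mybpc3 (-0.67). This setting was chosen after the values were seen and describes 1 embryo.

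**Figure D5:**
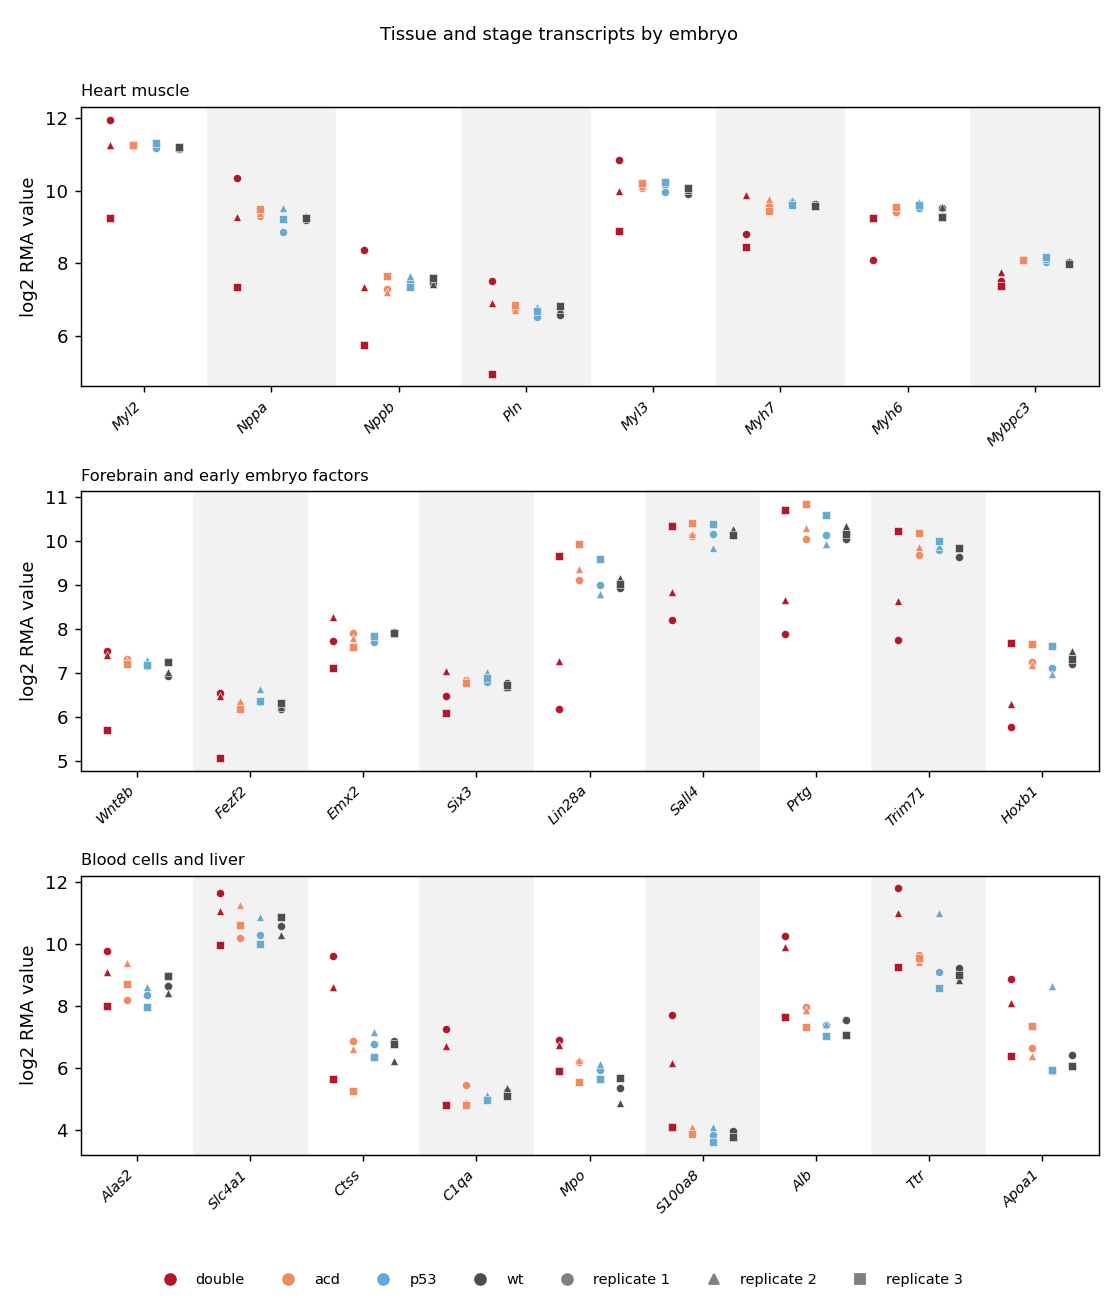
RMA log2 values (y axis) of tissue and stage transcripts, 1 point per embryo, with double left, then acd, p53 and wt; marker shape gives the replicate. Double replicate 3 is lowest for Myl2, Nppa, Nppb, Pln, Wnt8b and Fezf2, double replicates 1 and 2 are lowest for Lin28a, Sall4, Prtg, Trim71 and Hoxb1 and highest for Alb, C1qa and S100a8, and p53 replicate 2 is also high for Ttr and Apoa1.

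Neuronal genes were higher in double replicates 1 and 2 for the structural genes of young axons. All 14 cytoskeletal and RNA-binding neuron genes had a positive mean difference, 0 passed, and their medians by embryo were 0.28, 0.60 and -0.15. Stmn2, a microtubule protein of growth cones, measured 11.48, 11.30 and 10.33 in double and 10.27 to 10.44 in wt, and Gap43, of the same structures, 10.72, 10.70 and 10.13 in double and 10.16 to 10.17 in wt. The 12 neuronal transcription factors had medians of -0.35, 0.27 and 0.01 by embryo, and 8 of the 12 lay below all wt in replicate 1 (41.4% of tested genes). Of these Neurog2, which starts neuron formation, lay above wt in all 3, at 9.06, 9.25 and 8.82 in double and 8.62 to 8.68 in wt (0.38 ± 0.11). Progenitor genes Sox1 (7.21, 7.57 and 8.07 in double, 7.87 to 8.18 in wt) and Sox3 (8.50, 9.26 and 9.48 in double, 9.504 to 9.56 in wt) were lower in replicates 1 and 2, while the glial progenitor gene Fabp7 was higher, at 12.50, 12.09 and 11.17 in double and 11.16 to 11.31 in wt. The neural crest factor Snai2 measured 10.68, 10.77 and 10.51 in double and 10.30 to 10.41 in wt (0.28 ± 0.09), and the pigment enzyme Dct 6.51, 6.34 and 5.55 in double and 5.40 to 5.67 in wt. All double embryos lay above wt for Snai2 and not for Dct.

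Chaperone genes of the endoplasmic reticulum were modestly higher, with medians of 0.39, 0.21 and 0.10 by embryo. All 7 chaperones of the unfolded protein response measured had a positive mean difference, 3 with all double above all wt (4.96% of tested genes), and 0 passed. Pdia4, which forms disulphide bonds, measured 10.35, 10.20 and 10.18 in double and 9.91 to 10.03 in wt (0.28 ± 0.07, adjusted p = 0.447). Dnajb9, a cochaperone, measured 9.89, 9.43 and 9.04 in double and 8.88 to 8.97 in wt (0.51 ± 0.16), and Hspa5, the chaperone BiP, 13.33, 13.30 and 13.27 in double and 13.16 to 13.23 in wt. The amino acid stress targets did not share this, Asns measuring 9.65, 9.64 and 9.81 in double and 9.81 to 9.87 in wt. Of the hypoxia genes, Bnip3, a mitophagy receptor, measured 11.19, 10.58 and 10.93 in double and 10.46 to 10.68 in wt, and Vegfa 7.39, 7.43 and 7.58 in double and 7.18 to 7.33 in wt (0.19 ± 0.09). Among cytokines too low to be tested, the chemokine Ccl12 measured 6.78, 5.74 and 3.42 in double and 3.62 to 3.68 in wt, and Ccl2 5.69, 5.14 and 4.22 in double and 4.08 to 4.36 in wt, both high in replicates 1 and 2. Secreted genes tied to inflammation and senescence included Igfbp3, at 9.58, 9.37 and 8.93 in double and 8.80 to 8.99 in wt (0.41 ± 0.13), and Timp1, a protease inhibitor, at 8.46, 8.10 and 8.26 in double and 7.92 to 8.07 in wt. The cytokines Il1b (4.77, 4.92 and 4.66 in double, 4.40 to 4.60 in wt) and Tnf were below the Bacillus controls in every embryo.

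Whether the combined difference departs from the sum of the 2 single ones was asked by the interaction, double minus acd minus p53 plus wt. Limma called 0 genes (0%), with 530 at an unadjusted p under 0.05 and a lowest adjusted p of 0.879. The acd mean used here includes the array labelled acd replicate 1, whose p53 target levels go against that label; without it 0 genes were called. For Acd the sum of the single differences was -0.81, and double measured 0.18 ± 0.12 above it. For Elmo3 the sum was 1.96, double lying 0.36 ± 0.25 above it. Irs4 was the other way, with a sum of 0.11 and double minus that sum at -1.06 ± 0.22, and Mybpc3 had a sum of 0.16 and double minus it at -0.65 ± 0.13. Irs4 differed by 0.15 in acd and -0.04 in p53, and Mybpc3 by 0.07 in acd and 0.09 in p53. For Irgm1 the sum was 0.16 and double lay 3.004 ± 1.19 above it. Without double replicate 3 the interaction passed for 439 of the 13500 tested genes. Sex is uneven over this contrast, with 1 of 3 embryos male in double and in wt and 3 of 3 in acd and in p53. For Xist double lay 9.12 ± 2.82 above the sum. With all arrays and sex as a term, limma called 1 gene in the interaction. The 439 were not recomputed with that term.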

How the data were processed

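RNA from 12 whole embryos was read on Affymetrix 3' arrays, 1 array per embryo, with 250 ng of RNA labelled for each, per the labels' protocols. The deposited values are log2 expression values that the authors made with justRMA (background correction, quantile normalization and a summary per probe set); the series' design text also names BRB-ArrayTools 4.4.0. Quantile normalization hides any difference in the whole amount of RNA. Values were used as deposited.

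The table held 45101 probe sets, 64 of them controls; 34945 had 1 symbol, 932 had several (not used), and 34741 were matched by gene identifier to RefSeq (GRCm38.p6). Where a gene had several probe sets, the one with the highest average signal stood for it. It was tested if above the 40th percentile of its array on at least 3 arrays. Limma 3.58.1 in R 4.3.3 (statmod 1.5.0) fitted a mean per genotype to all 12 arrays (8 residual degrees of freedom). Variances were moderated by empirical Bayes and tests were two-sided, with Benjamini-Hochberg adjustment over the 13500 tested genes and a threshold of 0.05. The number of arrays limits the precision: 3 against 3 cannot go below 0.1 in an exact permutation test. The fit was checked on simulated data in which every genotype had the same spread per gene. That check does not cover the larger spread within double.

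The members, the 35 gene lists and the alternatives were chosen with earlier results of these data known, so lists are described by counts, medians and values and not tested. Named genes were Acd, all called genes, the 12 with the smallest p, largest rise, largest fall or widest gap in each direction, up to 5 members of each list by smallest p, and all telomere, interferon signalling and sex-linked genes. Other names (among them Ifit1, Oasl2, Xaf1, Cxcl10, S100a8, Eda2r, Cdkn1a, Pmaip1, heart and forebrain genes of replicate 3) were chosen after their values were seen. Genes too low for the test are given as values. A bound written as "at least" sets the double mean against the mean of the highest Bacillus control in wt. The p53 transcript was not analysed here. Replicate numbers do not pair the embryos, same-numbered double and wt arrays having deviations that correlate at 0.10, -0.09 and -0.03.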

Additional observations from a re-analysis of the deposited data

Results flagged for a closer look

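Control probe sets that the comparison does not use differed between these arrays. The 18 hybridisation control sets, which read RNA added in fixed amounts before hybridisation, lay 0.474 above the wt mean in double replicate 1 and 0.353 above it in replicate 2, against -0.05 in replicate 3 and -0.04 to 0.02 in the wt arrays; the highest of the acd and p53 arrays lay at 0.18. The 2 arrays with the highest added controls are those with the high interferon genes, and whether the 2 facts are linked was not tested. The control set for the murine B1 repeat measured 12.8 in double replicate 1 (12.78), 12.5 in replicate 2 (12.54) and 12.8 in replicate 3 (12.76), against 12.25, 12.50 and 12.31 in wt. All 3 double arrays lay above all 3 wt arrays, as did the acd arrays at 12.67 to 12.78.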

How the results depend on the processing

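Elmo3 was called in every setting but 1: with the 6 double and wt arrays alone 0 genes were called higher and 0 lower, 519 having an unadjusted p under 0.05, and Acd (-0.63) had an adjusted p of 0.774. Acd was not called, which left 0 genes lower, with a replicate block (-0.63, adjusted p = 0.202), array weights per genotype (-0.63, 0.368), no filter (-0.63, 0.0545), every probe set by itself (-0.63, 0.118; 3167 sets without overlap), quantile normalization again (-0.60, 0.142) or sex as a term (-0.63, 0.0748; interaction 1 gene). The call held with a robust trend, the 60th percentile filter, the mean of all probe sets, median centring, a threshold of 0.1, and without p53 replicate 3, double replicate 1 or double replicate 3. Leaving out each array in turn gave 1 to 828 genes higher, 0 to 818 lower, 0 to 439 in the interaction, 2251 to 5684 without overlap (1782 with all arrays; each such setting compares fewer arrays) and Acd at -0.67 to -0.57; the high ends are those without double replicate 3. Leaving out double replicates 1 and 2 together, chosen after seeing the data, gave 2 higher, 24 lower, 25 in the interaction and 8314 without overlap. Acd kept its direction in every setting. Other directions reversed where double replicate 3 stood alone. Over tested macrophage genes the median was 0.58 with all double embryos and -0.13 in replicate 3. Over tested early embryo timing genes it was -0.37 and 0.09. Lin28a, Trim71, Sall4, Prtg, Wfikkn1 and Hoxb1, named for their fall, lay above every wt embryo in replicate 3. Of the recomputed list medians 835 stayed within the spread between replicates and 40 did not. Of the recomputed values of other named genes, 934 kept their side of the threshold, 34 gained a call and 1 lost it. The replicate block changed no call but that of Acd.

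Precision is limited by 3 embryos per genotype and by the spread within double, which differs from the other genotypes although the fit shares 1 estimate. Levels under about 5.2 lie below the highest of the 27 Bacillus controls, so low expression and background are hard to tell apart there. The median of these controls was 3.24 to 3.34 over the arrays. By Y-linked transcripts, 1 of 3 embryos was male in double and in wt, and 3 of 3 in acd and in p53. Within double the male embryo was replicate 1, which stood farthest from wt.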
